A study of Mus musculus with 16 samples.

Results

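The 10 core genes of the circadian clock were Arntl (also written Bmal1), Clock, Npas2, Per1, Per2, Per3, Cry1, Cry2, Nr1d1 and Nr1d2. They were taken by gene symbol from an array of 19505 named genes, and each of the 10 had exactly 1 probe set. Expression was read on 16 Affymetrix arrays of total RNA from frozen liver and from eWAT, the labels' name for a white adipose depot. All animals were male C57BL/6J mice of 14 weeks, born to control females. Offspring of chow-fed control fathers are called CT and offspring of obese fathers F1, as in the labels. From the age of 8 weeks the obese fathers were kept for 12 weeks on high-fat food with 45% lipids. The diet was given to the fathers before mating, so the design asks whether the father's obesity is followed by a difference in the tissues of his sons. Each tissue had 4 CT and 4 F1 libraries, which makes 4 groups, and the libraries are numbered in the labels as biological replicates. Nothing in the sources used here gives the hour of sampling, the father or the litter. P-values therefore measure the spread between these samples, and libraries of brothers, if there were any, were counted as separate. If sons shared a father, the p-values could be too small for a question about fathers.

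The clock is a transcriptional loop that runs in nearly every cell. The protein of Arntl pairs with that of Clock, or of its relative Npas2, binds E-box sequences and switches on the Per, Cry and Nr1d genes. Per and Cry proteins return to the nucleus and block that pair, while the nuclear receptors encoded by Nr1d1 and Nr1d2 (REV-ERB alpha and beta) repress Arntl, Clock and Npas2 through ROR elements. The transcript levels of most of these genes rise and fall over the day, with Arntl and Npas2 in the opposite phase to Nr1d1, Per3 and the output factor Dbp. In liver and white fat the loop is known for timing genes of lipid, glucose and bile acid metabolism.

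The promoters show these elements as letters. RefSeq windows (build GRCm38.p6, 250 bases before to 50 after a gene's start) were held for 9 of the 10 genes, all but Per2. There were 13 windows in all, and 6 genes had a match to at least 1 of the motifs searched. The share of all genes with a match to any of the motifs was not counted. The 6 are therefore not shown to be more than other genes would give. Motifs were searched on both strands. The E-box CACGTG was in 7.15% of all 32851 promoter windows of that table, and its variant the E-prime box CACGTT in 4.68%. The D-box, bound by Dbp and its relatives, was in 0.938% as TTATGTAA and 0.119% as TTACGTAA. The ROR element core, bound by the Nr1d proteins, was in 2.61% as TAGGTCA and 3.98% as TGGGTCA, and the cAMP response element TGACGTCA in 1.79%. The windows with a match are printed because the loop described above runs through such elements, 5′ to 3′ on the gene's strand and ending 1 base before the start, with the matches in capitals. For Arntl a stretch of 30 bases after the start is printed. Per1 (chr11:69098699-69098948, plus strand) holds an E-box, Per3 (chr4:151044666-151044915, minus strand) 2 copies of a D-box, and Cry1 (chr10:85185055-85185304, minus strand) an E-box and an E-prime box. Cry2 (chr2:92434070-92434319, minus strand) and Nr1d1 (chr11:98775378-98775627, minus strand) hold an E-prime box each. Arntl (chr7:113207530-113207559, plus strand) holds a ROR element core.
Per1: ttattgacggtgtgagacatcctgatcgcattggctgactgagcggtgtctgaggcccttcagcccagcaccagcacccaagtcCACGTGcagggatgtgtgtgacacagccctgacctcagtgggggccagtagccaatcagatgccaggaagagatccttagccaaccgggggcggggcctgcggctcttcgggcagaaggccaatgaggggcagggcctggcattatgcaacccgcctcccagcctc
Per3: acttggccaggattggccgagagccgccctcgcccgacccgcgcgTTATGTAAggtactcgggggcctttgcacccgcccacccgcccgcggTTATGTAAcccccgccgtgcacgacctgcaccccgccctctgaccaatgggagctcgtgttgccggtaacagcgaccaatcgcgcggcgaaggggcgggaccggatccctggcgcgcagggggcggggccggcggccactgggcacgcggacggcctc
Cry1: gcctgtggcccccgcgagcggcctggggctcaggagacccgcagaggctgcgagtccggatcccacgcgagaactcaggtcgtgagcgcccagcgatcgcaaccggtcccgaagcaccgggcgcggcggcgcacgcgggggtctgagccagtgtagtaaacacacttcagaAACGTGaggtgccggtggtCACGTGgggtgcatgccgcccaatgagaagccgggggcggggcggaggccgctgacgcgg
Cry2: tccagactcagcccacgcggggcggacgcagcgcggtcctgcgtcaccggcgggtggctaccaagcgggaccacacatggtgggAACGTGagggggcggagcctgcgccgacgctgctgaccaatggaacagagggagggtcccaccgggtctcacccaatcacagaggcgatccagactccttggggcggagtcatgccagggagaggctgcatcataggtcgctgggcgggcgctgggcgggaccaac
Nr1d1: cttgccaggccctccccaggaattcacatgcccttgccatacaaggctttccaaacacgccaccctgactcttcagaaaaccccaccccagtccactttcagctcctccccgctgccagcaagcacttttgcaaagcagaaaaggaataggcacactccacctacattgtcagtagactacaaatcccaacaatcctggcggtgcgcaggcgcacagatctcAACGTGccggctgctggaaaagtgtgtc
Arntl: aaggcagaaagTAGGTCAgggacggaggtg
A match is a description of the letters and not of a bound site. The windows of Clock, Npas2 and Nr1d2 had no match to these motifs, and neither did a further window each of Per1 and Arntl. This says only that the letters were not in those windows.

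The deposited values are on a log2 scale, so that a difference of 1 is a doubling, and values of different genes are not compared because their probes differ. The lowest value of any of the 10 genes was 4.69, while the 25th percentile of all probe sets was at 3.88 to 3.92 in the liver libraries and at 3.44 to 3.55 in those of eWAT, and all 10 passed the filter on dim genes. Some libraries stood apart in other genes. Serum amyloid Saa1, an acute-phase gene, read 14.09 in liver F1 3 and 13.01 in liver F1 4, against 5.57 to 7.88 in the other 6 liver libraries. The median of 20 acute-phase genes was 14.58 to 14.82 in liver CT and 15.14 to 16.06 in liver F1, with 19 of them higher on average and 0 called. Liver F1 4 also carried exocrine pancreas transcripts (median of 9 markers 12.13, against 3.78 to 5.22 in the other 7 liver libraries), and the macrophage marker Marco read 10.76 in liver CT 2 against 5.23 to 6.41. The markers fitted the labelled tissues: the adipocyte hormone Adipoq read 18.95 to 19.24 in eWAT and 3.45 to 4.25 in liver, and the hepatocyte marker list had a median of 19.60 to 19.88 in liver. In eWAT that hepatocyte median ran from 7.13 to 12.88 in CT and from 10.20 to 14.30 in F1, and all 10 of its genes were higher on average in F1. Epididymis markers had medians of 2.88 to 3.38 in eWAT.

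In liver, Nr1d1 and Per3 lay higher and Npas2 lower in F1 than in CT in every library, at 2.98-fold, 3.29-fold and 3.62-fold on average. None of these differences passed the test across all genes (limma, Benjamini-Hochberg, adjusted p under 0.05). In eWAT the groups of Nr1d2 did not overlap, with F1 higher by 0.65 on the log2 scale, and it did not pass either. Of the 10 genes, 0 were called in liver, where 0.156% of all 14772 genes tested were called, and 0 in eWAT, where 0% of 14766 were. At an unadjusted p under 0.05 there were 4 of 10 in liver (Nr1d1, Per3, Npas2 and Cry2), against 9.11% of all genes, and 2 of 10 in eWAT (Nr1d1 and Nr1d2), against 9.98%. The groups did not overlap in 3 of 10 genes in liver and 1 of 10 in eWAT, where the same held for 5.36% and 5.92% of all genes. The median difference of the 10 genes was 0.26 in liver and 0.04 in eWAT, with 0.00 over all genes tested in each tissue. In RNA from whole tissue, fewer cells of a type and less RNA per cell cannot be told apart.

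**Figure D1:**
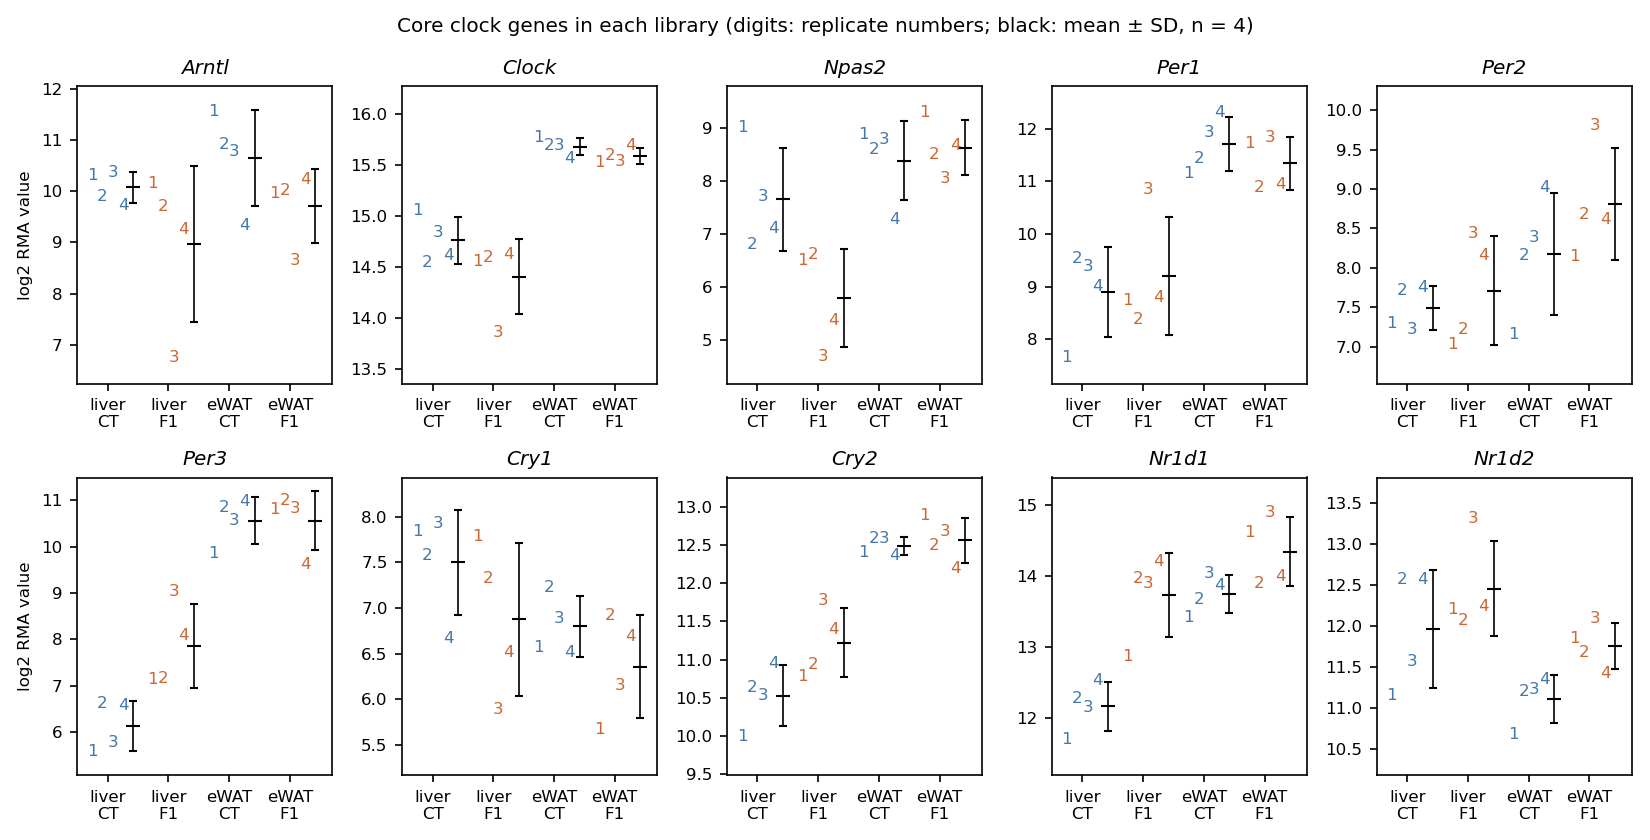
Level of each clock gene in every library (log2, digits are replicate numbers), for CT and F1 in liver and in eWAT. Black marks give the group mean ± SD (n = 4). In liver the F1 values of Nr1d1 and Per3 lie above all CT values and those of Npas2 below them. Arntl has 1 F1 value at 6.74, far under the rest.

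Arntl encodes the partner without which the activating pair does not form. In liver it read 10.31, 9.90, 10.36 and 9.73 in CT libraries 1 to 4, and 10.16, 9.70, 6.74 and 9.26 in F1 libraries 1 to 4. The CT values lay within a 1.55-fold range and the F1 values within a 10.7-fold range, with F1 3 far below every other library and F1 1 among the highest, so the groups overlapped. The group means were 10.07 ± 0.31 and 8.96 ± 1.53 (SD, n = 4 each), a difference of -1.11 ± 0.62 (SE, limma adjusted p = 0.645) with a 95% interval from -2.49 to 0.27. Without F1 3 the difference was -0.37. In eWAT the CT libraries read 11.56, 10.91, 10.78 and 9.34, and the F1 libraries 9.95, 10.01, 8.64 and 10.23. Here 3 CT libraries lay above all F1 libraries, and CT 4 lay below 3 of the F1 libraries. The difference was -0.94 ± 0.49 (adjusted p = 0.552, interval -2.05 to 0.17), and it was -0.58 without F1 3 and -1.38 without CT 4. The lowest Arntl of F1 was thus in a library numbered 3 in both tissues, but the labels do not say that these came from the same mouse.

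Clock, the usual partner of Arntl, kept closest to its mean. It read 15.05, 14.54, 14.84 and 14.61 in liver CT and 14.55, 14.59, 13.86 and 14.62 in liver F1. The groups overlapped, and F1 3 was again the lowest library, 0.69 below the next F1 value. The difference was -0.36 ± 0.21 (limma adjusted p = 0.663, 95% interval -0.82 to 0.11). In eWAT all 8 libraries were between 15.52 and 15.77: CT read 15.77, 15.69, 15.69 and 15.56 and F1 read 15.52, 15.59, 15.53 and 15.69. The difference there was -0.10 ± 0.14 (adjusted p = 0.83), with an interval of -0.40 to 0.21.

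Npas2, the relative that can take the place of Clock, was the activator with the widest separation in liver. It read 9.0, 6.81, 7.71 and 7.11 in CT and 6.51, 6.62, 4.69 and 5.38 in F1. Every F1 library lay below every CT library, but the gap between the lowest CT and the highest F1 library was only 0.19, and CT 1 stood well above the other CT libraries. The means were 7.66 ± 0.97 and 5.80 ± 0.93 (SD, n = 4 each), a difference of -1.86 ± 0.54 (unadjusted p = 0.00608, limma adjusted p = 0.309) with a 95% interval from -3.05 to -0.66. Leaving out single libraries moved it between -2.14 and -1.41. In eWAT, Npas2 read 8.87, 8.60, 8.79 and 7.28 in CT and 9.29, 8.51, 8.05 and 8.67 in F1. The groups overlapped there, and the low library was CT 4, the CT library in which Arntl was also lowest. The difference was 0.24 ± 0.38 (adjusted p = 0.845, interval -0.62 to 1.11).

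The Per genes encode the proteins that carry the Cry repressors into the nucleus. Per1, which also responds to glucocorticoids and to cAMP, read 7.66, 9.53, 9.39 and 9.01 in liver CT and 8.74, 8.38, 10.85 and 8.80 in liver F1. Its lowest library was CT 1 and its highest F1 3. Of the remaining 6, CT 2, 3 and 4 all lay above F1 1, 2 and 4, against the sign of the mean difference. The difference was 0.30 ± 0.56 (limma adjusted p = 0.923, 95% interval -0.96 to 1.54), and it turned to -0.26 without F1 3. In eWAT, Per1 read 11.14, 11.44, 11.93 and 12.31 in CT and 11.71, 10.88, 11.84 and 10.93 in F1. These groups overlapped over most of their range, and the difference was -0.36 ± 0.32 (adjusted p = 0.716, interval -1.08 to 0.35).

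Per2 read 7.29, 7.71, 7.21 and 7.75 in liver CT and 7.03, 7.22, 8.43 and 8.16 in liver F1. Of the F1 libraries, 3 and 4 lay above all of CT, and 1 and 2 at its lower end. The difference was 0.22 ± 0.31 (limma adjusted p = 0.888, 95% interval -0.48 to 0.92), and -0.02 without F1 3. In eWAT, where Per2 read 7.15, 8.16, 8.38 and 9.02 in CT and 8.14, 8.68, 9.81 and 8.61 in F1, the lowest library was CT 1 and the highest F1 3. Those are the libraries with the highest and the lowest Arntl of that tissue. The difference in eWAT was 0.63 ± 0.44 (adjusted p = 0.654, interval -0.36 to 1.62).

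Per3, with a repeated D-box in the letters above, read 5.57, 6.61, 5.77 and 6.58 in liver CT and 7.13, 7.16, 9.03 and 8.08 in liver F1. No F1 value overlapped with CT. The 2 lower F1 libraries were 1 and 2, and F1 3 was again the extreme one. The means were 6.13 ± 0.54 and 7.85 ± 0.90 (SD, n = 4 each), a difference of 1.72 ± 0.43 (unadjusted p = 0.00243, limma adjusted p = 0.225) with a 95% interval from 0.77 to 2.67. It moved between 1.32 and 1.96 when single libraries were left out. In eWAT, Per3 read 9.84, 10.85, 10.56 and 10.97 in CT and 10.81, 10.99, 10.83 and 9.61 in F1. The means of the groups were both 10.56, with a difference of 0.00 ± 0.35 (adjusted p = 0.998) and an interval of -0.78 to 0.80.

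The Cry genes encode the repressors that act on the activating pair directly. Cry1 read 7.84, 7.57, 7.93 and 6.67 in liver CT and 7.78, 7.32, 5.89 and 6.51 in liver F1. The lowest library was F1 3, and CT 4 lay with the lower F1 libraries. The difference was -0.63 ± 0.42 (limma adjusted p = 0.705, 95% interval -1.55 to 0.30), and -0.30 without F1 3. In eWAT, where Cry1 read 6.57, 7.23, 6.89 and 6.51 in CT and 5.67, 6.92, 6.15 and 6.69 in F1, the groups overlapped (difference -0.44 ± 0.29, adjusted p = 0.639, interval -1.10 to 0.21).

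Cry2 read 9.99, 10.64, 10.53 and 10.95 in liver CT and 10.78, 10.94, 11.77 and 11.39 in liver F1. The groups touched through CT 4, which lay above F1 1 and F1 2. The difference was 0.69 ± 0.26 (unadjusted p = 0.0257, limma adjusted p = 0.483, 95% interval 0.10 to 1.28). In eWAT the CT libraries were within 0.22 of each other (12.40, 12.58, 12.58 and 12.36), and the F1 libraries lay on both sides of them (12.88, 12.49, 12.68 and 12.19). The difference there was 0.08 ± 0.18 (adjusted p = 0.902, interval -0.32 to 0.48).

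Nr1d1, the nuclear receptor that represses Arntl and Npas2, had the smallest p of the 10 genes in liver. It read 11.69, 12.27, 12.14 and 12.53 in CT and 12.87, 13.96, 13.90 and 14.20 in F1. The F1 libraries all lay above CT, and F1 1 was the nearest to it. The means were 12.16 ± 0.35 and 13.73 ± 0.59 (SD, n = 4 each), a difference of 1.58 ± 0.29 (unadjusted p = 0.000324, limma adjusted p = 0.0965) with a 95% interval from 0.92 to 2.23. Its side of the threshold rested on the setting, and 3 of 16 alternatives called it. The adjusted p was 0.0335 without F1 1 (difference 1.86) and 0.023 in a fit that drew the spread from all 16 libraries. With a variance prior that followed the level and was robust it was 0.00873. The other alternatives did not call Nr1d1, with an adjusted p of 0.254 without CT 2 and 0.283 without F1 3 and F1 4. Nr1d1 differed from Arntl in that the F1 libraries 2, 3 and 4 were all high, so that the difference was still 1.52 without F1 3. In eWAT, Nr1d1 read 13.42, 13.67, 14.04 and 13.87 in CT and 14.61, 13.89, 14.89 and 13.99 in F1. There F1 1 and F1 3 lay above all of CT, and F1 2 and F1 4 among its upper values. The difference was 0.60 ± 0.26 (unadjusted p = 0.0439, adjusted p = 0.485, interval 0.02 to 1.17).

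Nr1d2, its close relative, read 11.15, 12.57, 11.56 and 12.56 in liver CT and 12.20, 12.07, 13.31 and 12.24 in liver F1. The CT libraries fell into a low pair (1 and 3) and a high pair (2 and 4), and of the F1 libraries only F1 3 lay above them. The difference was 0.50 ± 0.38 (limma adjusted p = 0.754, 95% interval -0.35 to 1.34), and 0.21 without F1 3. In eWAT, Nr1d2 read 10.68, 11.20, 11.22 and 11.34 in CT and 11.85, 11.67, 12.09 and 11.42 in F1. The groups did not overlap, with F1 higher and 0.08 between F1 4 and CT 4. The means were 11.11 ± 0.29 and 11.76 ± 0.28 (SD, n = 4 each), a difference of 0.65 ± 0.21 (unadjusted p = 0.0117, adjusted p = 0.397, interval 0.18 to 1.11). With the hepatocyte marker median of each library as a covariate it was again 0.65 (adjusted p = 0.444).

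**Figure D2:**
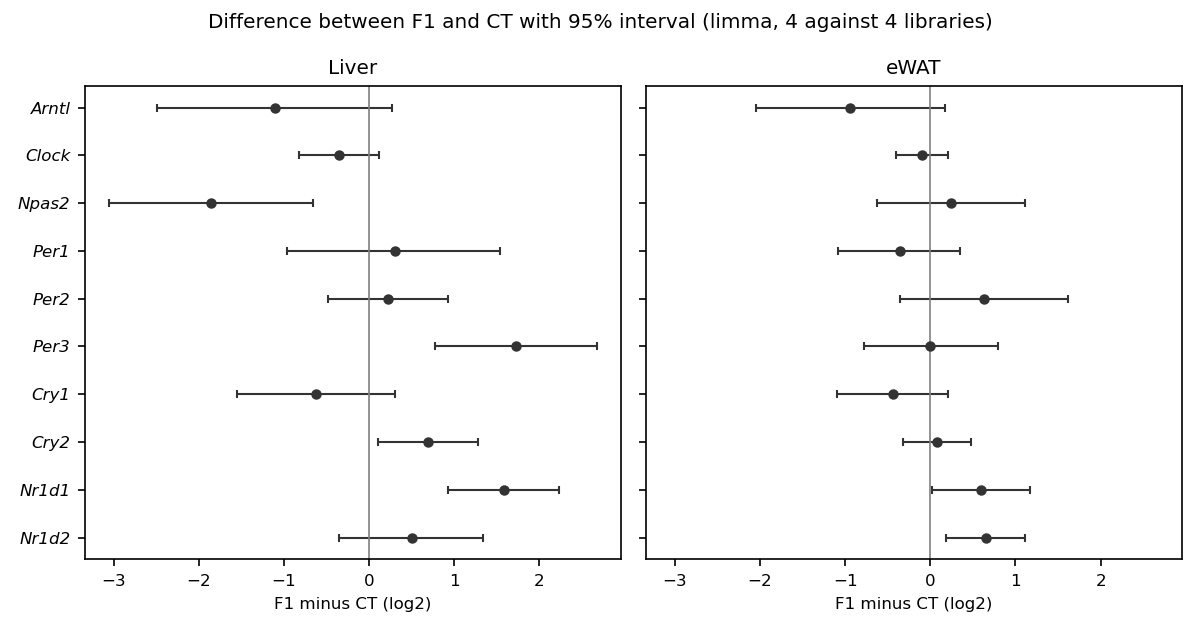
Difference between F1 and CT for each clock gene (point, log2) with its 95% interval (bar) in liver and eWAT, from limma fits of 4 against 4 libraries. Before adjustment the intervals of Npas2, Per3, Cry2 and Nr1d1 in liver and of Nr1d1 and Nr1d2 in eWAT lie off 0, and those of Arntl span 0 in both tissues.

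Liver F1 3 and F1 4, the libraries with high Saa1, were also the ones with the lowest Npas2 and Arntl and the highest Per3 of that tissue. Leaving both out, an alternative added after the values were seen, left 2 F1 libraries. Nr1d1 then differed by 1.26 (limma adjusted p = 0.283), Per3 by 1.01 (0.399) and Npas2 by -1.09 (0.612), each in the direction found with all libraries. Arntl differed by -0.14 (0.916), and the differences of Per1, Per2 and Cry1 were -0.34, -0.36 and 0.05, each with the opposite sign to that over all libraries. Feeding state is another timer of the liver clock: of 14 fasting and feeding genes on the array, 11 were lower and 2 higher on average in liver F1, with a median of -0.67, 0 called, and 7 lower at an unadjusted p under 0.05 (4.66% of all genes). Of 15 glucocorticoid targets, 2 were called in liver, against 0.156% of all genes. The metallothionein Mt2 rose (4.88 ± 0.41, adjusted p = 0.00129) and the kinase Sgk1 fell (-1.62 ± 0.19, adjusted p = 0.0151). The part of acute-phase, feeding or glucocorticoid genes in the clock values was not tested, nor was that of the exocrine pancreas transcripts of liver F1 4. The hour of sampling and the group cannot be told apart where the hour is not given.

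The difference between the tissues in the response was itself tested as an interaction over all 16 libraries (the liver difference minus the eWAT difference). Of the 10 clock genes 0 were called, where 0.0795% of 15090 genes were, and 3 of 10 had an unadjusted p under 0.05, against 9.79% of all genes. These were Npas2 (-2.10 ± 0.71, limma adjusted p = 0.36), Per3 (1.71 ± 0.59, adjusted p = 0.362) and Nr1d1 (0.98 ± 0.41, adjusted p = 0.45). The separations of Npas2 and Per3 in liver and that of Nr1d2 in eWAT are therefore not shown to be particular to a tissue.

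Genes around the core loop were counted from a list of 26, of which 24 were on the array. In liver 23 were tested: 18 were higher and 5 lower on average in F1, 0 were called, and 5 had an unadjusted p under 0.05, all higher (4.45% of all genes). The median difference was 0.19. Dbp, the D-box activator that the Arntl pair drives directly, read 6.22, 8.44, 7.82 and 8.38 in CT and 8.83, 9.04, 12.39 and 11.87 in F1. Its groups did not overlap, F1 3 and F1 4 lay far above the rest, and the difference of 2.82 ± 0.83 (7.05-fold) had a limma adjusted p of 0.327. The clock repressor Ciart read 4.36, 4.73, 4.48 and 4.49 in CT and 4.05, 5.76, 9.47 and 7.32 in F1, so that F1 1 lay below all of CT and F1 3 and F1 4 far above it (2.13 ± 0.91, adjusted p = 0.514). The deubiquitinase Usp2 (1.78 ± 0.67, adjusted p = 0.483) and the repressor Bhlhe41 (1.48 ± 0.58, adjusted p = 0.488) had the same order of F1 libraries, with F1 3 highest at 8.95 and 7.70. The kinase subunit Prkaa1 differed by 0.49 ± 0.22 (adjusted p = 0.541) and Tef, a relative of Dbp, by 0.44 ± 0.29 (adjusted p = 0.702).

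In eWAT 22 genes of that list were tested, with 16 higher, 6 lower, 0 called and a median of 0.13. At an unadjusted p under 0.05 there were 3, all higher (4.96% of all genes). Dbp read 9.16, 10, 9.87 and 10.80 in CT and 11.46, 10.79, 12.52 and 10.34 in F1. Its CT libraries 1 to 3 lay below all of F1, CT 4 lay among the F1 values, and the difference was 1.32 ± 0.48 (limma adjusted p = 0.419). Tef read 4.40, 3.92, 4.54 and 4.66 in CT and 4.73, 5.08, 5.66 and 4.75 in F1, without overlap (0.68 ± 0.25, adjusted p = 0.424). The coactivator Ppargc1a differed by 0.75 ± 0.33 (adjusted p = 0.493), Hlf, the other Dbp relative, by 0.58 ± 0.32 (0.563), Ciart by 0.62 ± 0.39 (0.619) and Arntl2, the paralog of Arntl, by 0.38 ± 0.19 (0.533) with no overlap between the groups.

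**Figure D3:**
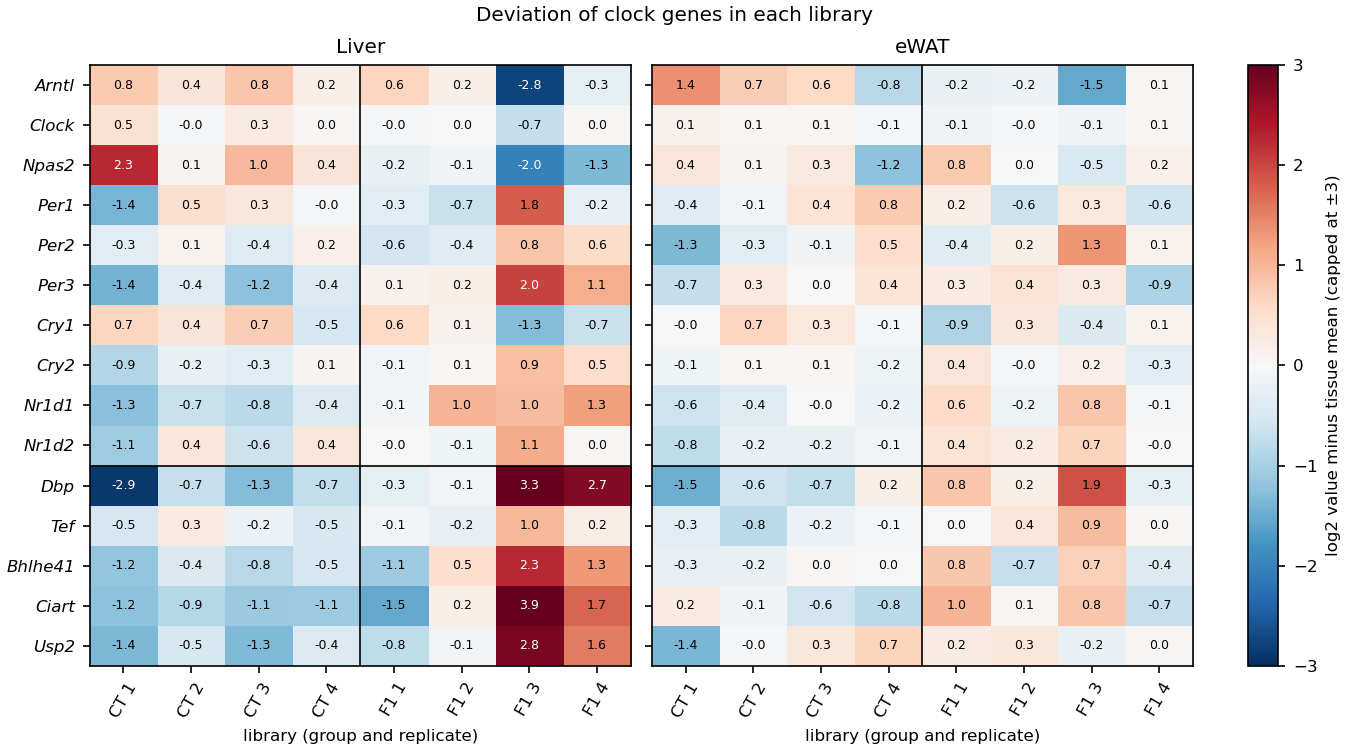
Deviation of each gene (rows) from its mean over the 8 libraries of a tissue (log2, number and colour, colour capped at 3 either way), by library (columns), with the 10 core genes above the line and 5 genes of the wider loop below it. Liver CT 1 and liver F1 3 are near opposites, with Arntl at 0.79 and -2.78 and Per3 at -1.42 and 2.04, and eWAT CT 1 and F1 3 oppose each other in Arntl and Per2.

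The libraries were also set against each other by a contrast of 9 of the 10 genes, with Cry2 in neither set. The deviations from the tissue mean were averaged over Nr1d1, Nr1d2, Per1, Per2 and Per3, and the average over Arntl, Clock, Npas2 and Cry1 was taken off. In liver this contrast was -2.13, -0.22, -1.25 and -0.10 in CT libraries 1 to 4 and -0.41, -0.05, 3.06 and 1.10 in F1 libraries 1 to 4. All CT values were below 0, and the F1 libraries were either inside the CT range (1), just above it (2) or far above it (3 and 4). In eWAT it was -1.23, -0.53, -0.30 and 0.84 in CT and 0.33, -0.02, 1.31 and -0.40 in F1, so that both groups held values on both sides of 0. No test was run on this contrast, because the sets were chosen with results of these data known.

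**Figure D4:**
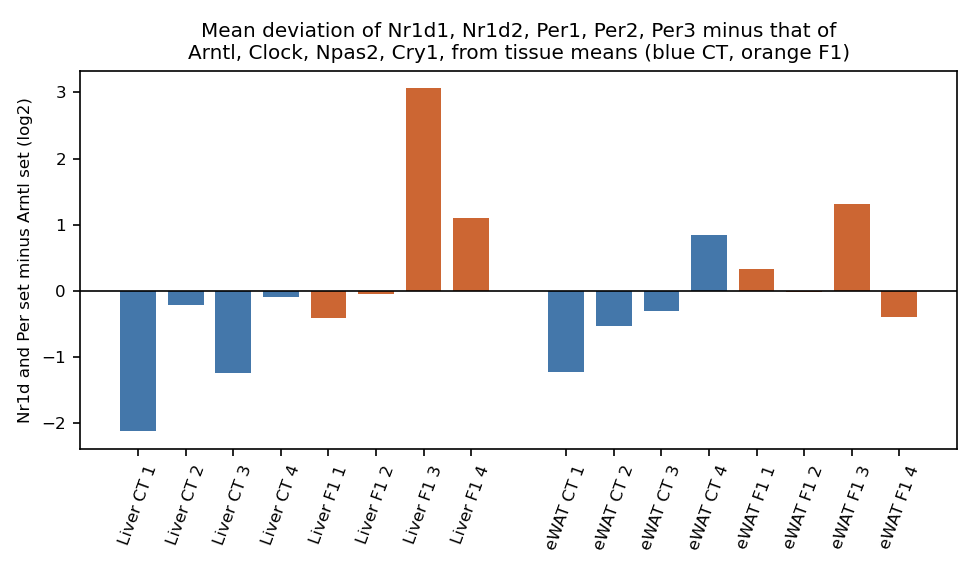
Mean deviation of Nr1d1, Nr1d2, Per1, Per2 and Per3 minus that of Arntl, Clock, Npas2 and Cry1 (log2), 1 bar per library, CT in blue and F1 in orange, in liver and eWAT. Liver CT runs from -2.13 to -0.10 and liver F1 from -0.41 to 3.06, with F1 3 highest.

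The relation to Arntl was followed over the 8 libraries of each tissue for the other 9 genes, 18 relations in all (exact permutation tests, two-sided, with Benjamini-Hochberg adjustment over the 18). The signs were the same in liver and eWAT: 3 genes (Clock, Npas2 and Cry1) followed Arntl and 6 ran against it. In liver 8 of 9 genes had a Pearson correlation with an unadjusted exact permutation p under 0.05, where 6.24% of 14753 genes had one, and 6 of 9 a Spearman correlation, against 6.2%. In eWAT there were 4 of 9 by Pearson, against 5.08% of 14765 genes, and 3 of 9 by Spearman, against 6.32%. These relations pool CT and F1, and each group holds too few libraries for a value of its own. Part of a pooled relation can be the difference between the groups, so r and rho are also given with the group means taken off, with no p.

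By rank, Cry1 was the gene closest to Arntl in liver, with r = 0.87 and rho = 0.98 (exact permutation p = 0.000124 and 0.000397, adjusted 0.00223 and 0.00714). Its r was 0.84 without F1 3 and F1 4, the libraries farthest from the median of Arntl, and 0.83 (rho 0.86) with group means taken off. Clock had the largest r, 0.91, but a rho of 0.55 (adjusted exact permutation p = 0.0213 and 0.22). Its r was 0.70 without those libraries and 0.87 (rho 0.64) with group means off. Per3 ran against Arntl, with r = -0.87 and rho = -0.88 (adjusted exact permutation p = 0.00774 and 0.0326), r = -0.70 without them, and -0.89 (rho -0.88) with group means off. Cry2 had r = -0.84 and rho = -0.93 (adjusted exact permutation p = 0.00536 and 0.0201), and these were -0.78 and -0.67 with group means off. Nr1d1 had r = -0.62 and rho = -0.83, which came down to -0.42 and -0.24 with group means off. For Per1, r went from -0.76 to -0.15 without F1 3 and F1 4, and rho over all 8 libraries was -0.29. With group means off, Per1 had r = -0.80 and rho = -0.64.

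In eWAT, Per2 had the largest r with Arntl, -0.93, and a rho of -0.76 (adjusted exact permutation p = 0.00926 and 0.0735). Clock was closest by rank (r = 0.88, rho = 0.90, adjusted exact permutation p = 0.0129 and 0.0286), followed by Nr1d2 (r = -0.85, rho = -0.86, adjusted exact permutation p = 0.0213 and 0.0386). Without CT 1 and F1 3, the libraries farthest from the median, r was -0.71 for Per2, 0.79 for Clock and -0.48 for Nr1d2, and that of Nr1d1 went from -0.77 to -0.25. Taking the group means off gave r = -0.91 (rho -0.83) for Per2, 0.83 (0.79) for Clock, -0.82 (-0.98) for Nr1d2 and -0.65 (-0.76) for Nr1d1. The r of Per1 moved from -0.44 to -0.83 and its rho from -0.40 to -0.95. For Npas2, r moved from 0.59 to 0.86, but rho went from 0.55 to 0.48, so the rise was not seen by rank. Cry2, which ran against Arntl in liver, had r = -0.21 in eWAT and 0.18 without CT 1 and F1 3.

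**Figure D5:**
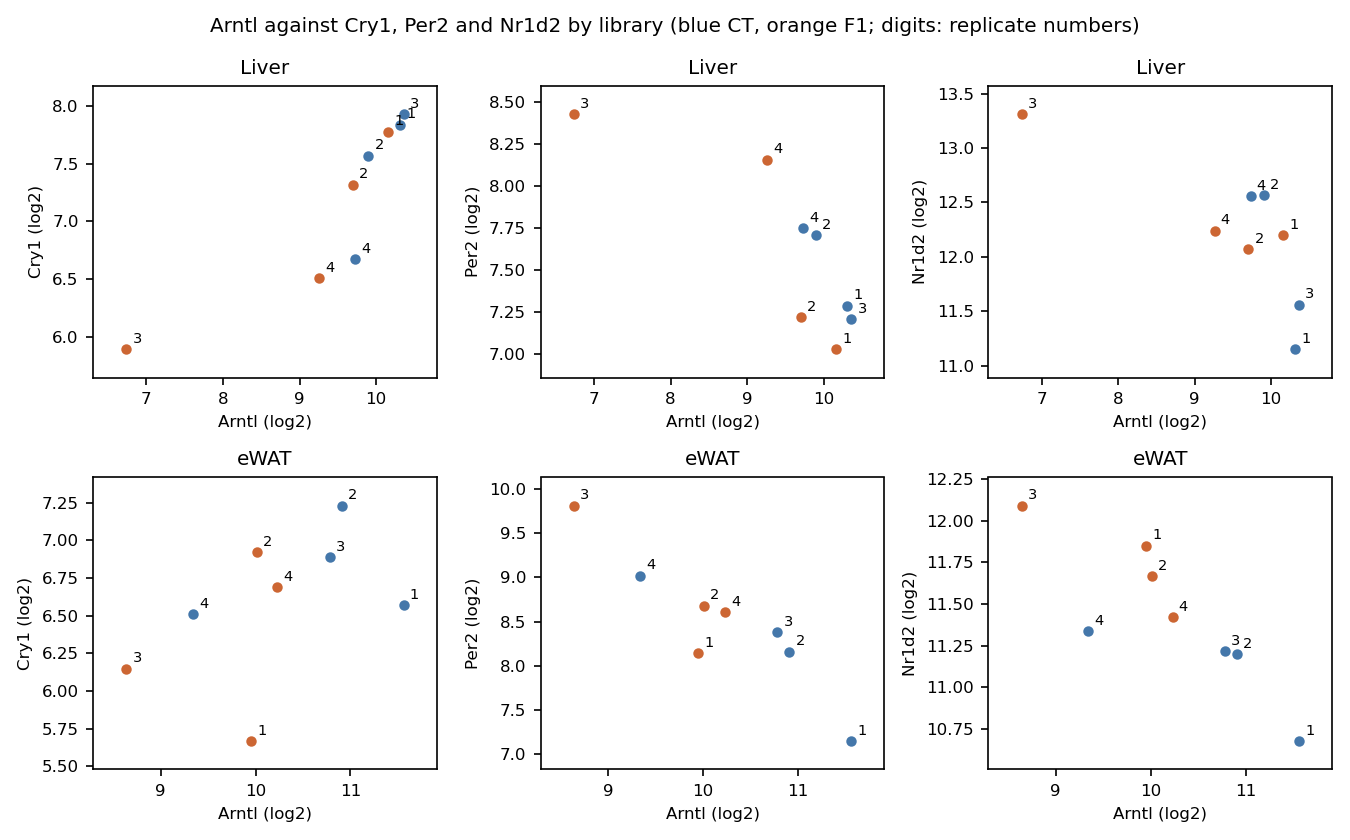
Level of Cry1, Per2 and Nr1d2 against that of Arntl (both log2) in the 8 libraries of liver (top) and of eWAT (bottom), CT in blue and F1 in orange, with replicate numbers. Liver F1 3, at an Arntl of 6.74, is the isolated point, with the lowest Cry1 (5.89) and the highest Per2 (8.43) and Nr1d2 (13.31) of liver.

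The genes most like Arntl and Nr1d1 on the array were looked for with the group means taken off, over 8 libraries of a tissue, and are given as a description. Among 6916 genes with enough spread in liver, the highest r with Arntl belonged to Elovl3, a fatty acid elongase (0.99), Tex9 (0.98) and Eps8l2, Slc22a30 and Slc22a28 (0.97 each). Elovl3 read 18.16, 17.88, 18.19 and 17.59 in CT and 17.12, 17.12, 14.91 and 16.75 in F1, lowest in the library where Arntl was lowest. The lowest r with Arntl, from -0.99 to -0.98, belonged to Kctd16, Max, Tmod2, Spata33 and Endod1. For liver Nr1d1 the highest r (0.95 to 0.97) was with Dhdds, Flrt2, Creb3l2, Dusp7 and Pi4k2b, and the lowest (-0.97 to -0.95) with Pp2d1, Ggn, Cirbp, Vtcn1 and Fut10.

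Among 7519 genes in eWAT, Arntl was most like Leo1, Spg7, Cpne8, Chchd1 and Pard6g (0.96 to 0.99) and least like Gdpd1, Spag6, Svbp, Otub2 and Ccna2 (-0.98 to -0.96). Nr1d1 was most like Vps45, Cckbr, St6galnac3, Sh2b2 and Bambi (0.92 to 0.98) and least like Pclaf, Tmem183a, Defa43, Kcnu1 and Lrrk2 (-0.96 to -0.92). With 8 libraries, 2 of which carry much of the spread of Arntl, a high r does not single out a gene among so many.

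The levels of the clock genes in liver and eWAT were compared in the CT offspring. The tissues appear to have been normalized separately, since the sorted values of a liver and an eWAT library differed by up to 1.39 to 1.71 and those within a tissue by at most 0.20 to 0.53. The median of all genes was -0.80 (liver minus eWAT) in the deposited values and 0.02 after quantile normalization over all 16 libraries, so both values are given and only signs shared by both are described. With the deposited values 7 of 10 clock genes were called, where 74.4% of 15116 genes were, and after quantile normalization the same 7 were called, where 66.4% were. The split of all calls moved from 2787 higher and 8461 lower to 4977 higher and 5095 lower.

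The 5 genes lower in liver by both scalings (on the deposited scale 56% of all genes were called lower) were Per3, Per1, Cry2, Nr1d1 and Clock. Per3 was farthest apart, at -4.42 ± 0.32 (limma adjusted p = 3.33e-07) and -3.15 after quantile normalization. On the deposited scale its 8 liver values, CT and F1 together (5.57 to 9.03), all lay below its 8 eWAT values (9.61 to 10.99). By percentile rank within a library the tissues overlapped, with liver F1 3 at 76.2 against 73.2 in eWAT CT 1 and 71.2 in eWAT F1 4. Per1 was at -2.81 ± 0.41 (9.34e-05) and -1.76, Cry2 at -1.95 ± 0.21 (9.43e-06) and -1.13, Nr1d1 at -1.59 ± 0.22 (6.09e-05) and -1.16, and Clock at -0.92 ± 0.17 (0.000511) and -1.06. Cry1 and Nr1d2 were higher in liver by both scalings (on the deposited scale 18.4% of all genes were called higher): Cry1 by 0.70 ± 0.29 (0.0477) and 2.04, and Nr1d2 by 0.85 ± 0.33 (0.0366) and 1.69. On the deposited scale the call of Cry1 was lost in 6 of 8 fits that left out 1 library (adjusted p 0.0691 to 0.131), and that of Nr1d2 in 5 of 8 (0.0546 to 0.107). Nr1d1 and Nr1d2, which encode near relatives, thus had opposite signs between the tissues. Arntl, Npas2 and Per2 were not called by either scaling with all libraries and changed sign between them, at -0.57, -0.73 and -0.69 in the deposited values and 0.48, 0.60 and 0.63 after quantile normalization. On the deposited scale Arntl was called lower in liver without eWAT CT 4 (adjusted p = 0.00401), Npas2 without liver CT 1 (0.0246) or eWAT CT 4 (0.0431), and Per2 without eWAT CT 1 (0.00488).

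The order of the group means differed by gene. For Nr1d1 it ran from liver CT (12.16) to liver F1 (13.73), eWAT CT (13.75) and eWAT F1 (14.34), and liver F1 and eWAT CT did not differ beyond their spread. For Per3 it ran from liver CT (6.13) to liver F1 (7.85) and then eWAT, where CT and F1 were level. For Npas2 the order was liver F1 (5.80), liver CT (7.66), eWAT CT (8.38) and eWAT F1 (8.63), with no neighbours in eWAT apart beyond their spread and liver CT overlapping eWAT CT. For Arntl all 4 groups overlapped at values between 9.73 and 10.16, from liver F1 (8.96) over eWAT F1 (9.71) and liver CT (10.07) to eWAT CT (10.65). The orders across tissues hold for the deposited scale only.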

How the data were processed

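The deposited table holds log2 expression values of 16 arrays, which the authors made, per the submitters' processing notes, by RMA (Transcriptome Analysis Console 4.0). They run from 1.47 to 19.93 over 22206 probe sets, and the genome build behind the probe sets is not given in the sources used here. The median value of a library was 5.21 to 5.24 for liver and 6.34 to 6.56 for eWAT. Arrays have no read depth, and their number limits the precision. The platform annotation gave 19572 probe sets 1 symbol and 2634 none. A RefSeq table (GRCm38.p6) changed 0 symbols. For 55 symbols with several probe sets the brightest on average was kept, which left 19505 genes.

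F1 was compared with CT in each tissue, liver with eWAT in CT, and the effects of both tissues as an interaction, with limma 3.58.1 (lmFit and eBayes) in R 4.3.3. Genes whose mean in a fit's libraries was under their 25th percentile were dropped, p-values were adjusted by Benjamini-Hochberg over all kept genes, and genes were called at an adjusted p under 0.05. The fit was tested on simulated data in which genes varied independently of each other within a library. The members and all lists were chosen with earlier results of these data known. All 10 clock genes are named, with up to 6 genes of the wider clock list per tissue by smallest p. For likeness the 5 genes with the highest and the 5 with the lowest r are named, among genes whose deviations had an SD of at least 0.3, with numbered gene models, small RNAs and olfactory or vomeronasal receptors passed over. Of the other lists, up to 2 members are named. Alternatives were other filters, priors, weights and scalings, a replicate block and the leaving out of libraries.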

Additional observations from a re-analysis of the deposited data

Results flagged for a closer look

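In 7 of 88 sets of 4 libraries (22 clock genes in 4 groups) 1 library stood apart from the other 3 by Dixon's criterion. Chance gives about 1 in 20 for independent sets. These sets were not independent, since clock genes varied together within a library. The genes beyond the core 10 were also picked by smallest p in these data, so no excess over chance is shown. Of the 7 sets, 3 were liver F1 3. Clock read 13.86 there against 14.55 to 14.62 in the other F1 libraries, Per1 10.85 against 8.38 to 8.80, and Nr1d2 13.31 against 12.07 to 12.24. In eWAT CT 4, Npas2 read 7.28 against 8.60 to 8.87 and Arntl2 4.87 against 5.45 to 5.52. Per3 read 9.61 in eWAT F1 4 against 10.81 to 10.99, and Prkaa1 read 9.19 in liver F1 1 against 9.79 to 9.89.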

How the results depend on the processing

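Of the 10 clock genes, 0 were called in eWAT and in the interaction under every alternative run, and in liver 1 (Nr1d1) was called in the fit over all libraries (48 genes called in all) and with the trended, robust prior (74). Leaving out 1 library gave 0 to 1 clock genes and 7 to 24 genes in liver (the clock gene without F1 1; 7 genes without CT 2 or F1 3, 8 without CT 4 and 10 without CT 3 or F1 2), 0 to 1 genes in eWAT (1 without CT 4 or F1 4), and 7 to 27 genes in the interaction (7 without eWAT CT 3, 22 without liver F1 4 and 27 without eWAT F1 3). The fit over all libraries called 29 genes in eWAT, and the trended, robust prior called 35 in the interaction. The labels do not tie samples by replicate number. With group means taken off, same-numbered samples correlated at -0.06 to 0.06 between liver CT and F1 and -0.31 to 0.22 between eWAT CT and F1. Between liver and eWAT in CT they correlated at 0.01 to 0.04. There libraries 1 and 4 correlated best with their own number, and 2 and 3 did not. Between liver and eWAT in F1 they correlated at 0.03 to 0.05, where each of the 4 correlated best with its own number. That is a hint from the data and not the design. Over the 10 clock genes alone the F1 values were -0.04, 0.26, 0.85 and -0.14. With the replicate block 6 genes were called in liver and 7 in the interaction, and 8 clock genes between the tissues (Per2 in addition, adjusted p = 0.0499), where leaving out 1 library gave 5 to 8. Signs turned for Per1 (-0.34), Per2 (-0.36) and Cry1 (0.05) in liver without F1 3 and F1 4, for Per3 in eWAT (-0.01) after quantile normalization, and between the tissues for Arntl, Npas2 and Per2 after quantile normalization (0.48, 0.60 and 0.63) and by percentile rank (3.4, 4.4 and 4.6 points). When 1 library was left out, ranges spanned 0 in liver for Per1 (-0.26 to 0.57) and Per2 (-0.02 to 0.45), in eWAT for Npas2 (-0.12 to 0.44), Per3 (-0.23 to 0.32) and Cry2 (-0.03 to 0.20), and in the interaction for Arntl (-0.57 to 0.57), Cry1 (-0.49 to 0.14) and Nr1d2 (-0.44 to 0.05). The cause was not tested. The liver Nr1d1 adjusted p ran from 0.00873 to 0.283. A second probe set was not run, because every clock gene has 1.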
